A study of Mus with 8 samples.

Results

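Cells carrying RNA of Dntt, which encodes the template-independent polymerase terminal deoxynucleotidyl transferase, were read out in the 4 libraries of 14-day-old (P14) mice. A barcode was taken as a Dntt cell if it had at least 7500 gene UMI, at most 10% mitochondrial UMI, at least 2 Dntt UMI and fewer than 3 UMI per 10000 summed over the 4 B lineage genes Ebf1, Vpreb1, Vpreb3 and Cd79a. A UMI is a molecular identifier that counts 1 captured RNA molecule. The rule was met by 2416 of the 15298 P14 barcodes within the UMI and mitochondrial limits, and 35549 barcodes of the 8 libraries of the series were within those limits. The cells were thus chosen by their measured Dntt and B lineage UMI, and values of these genes are given as a description only.

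CITE-seq, which counts RNA and antibody-bound tags in the same single cells, had been run on sorted mouse blood progenitors. The sorted fractions were lineage-negative Kit+ cells (LK), and within that phenotype the Sca1+ cells (LSK), which are richer in stem and multipotent cells. Mice were Ifnar+/- or Ifnar-/-, the second lacking both copies of a type I interferon receptor gene; no strain, organ, sex or number of mice is given in the labels, nor is it stated that the LK and LSK cells of a genotype share mice. Each combination of age, fraction and genotype was 1 library, so no comparison between libraries has a replicate check, no test was run and intervals cover counting error only.

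Lymphoid priming is the stage at which multipotent progenitors begin to transcribe genes of the lymphoid lineages while still able to give other blood cells. Flt3 and Il7r encode cytokine receptors that support early lymphoid cells, Rag1 and Rag2 encode the recombinase that cuts antigen receptor loci, and Dntt adds nucleotides at the joints. In mice Dntt is known to be nearly silent in fetal and newborn lymphopoiesis and to come on after birth. On mm10 coordinates (RefSeq GRCm38.p6) Dntt lies at chr19:41029275-41059525, Flt3 at chr5:147330741-147400489, Il7r at chr15:9506159-9529941, Rag2 at chr2:101624712-101632528 and Rag1 at chr2:101638252-101649532.

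Values below are given, unless said otherwise, in the order LK Ifnar+/-, LK Ifnar-/-, LSK Ifnar+/- and LSK Ifnar-/-. The rule took 219, 342, 1014 and 841 cells of 2411, 3885, 4615 and 4387 barcodes. That is 9.08% (exact Clopper-Pearson 95% interval 7.97 to 10.3), 8.80% (7.93 to 9.74), 22.0% (20.8 to 23.2) and 19.2% (18.0 to 20.4) of each library. Both LSK libraries lay above both LK libraries, by 12.9 percentage points in Ifnar+/- (Newcombe interval 11.2 to 14.5) and by 10.4 points in Ifnar-/- (8.90 to 11.8). Between genotypes the share was 0.280 points lower in Ifnar-/- LK cells, where the interval of the difference (-1.76 to 1.15) spans 0, and 2.80 points lower in Ifnar-/- LSK cells (interval of the difference -4.47 to -1.13). The 4 newborn (P0) libraries held 12 such cells among 20251 barcodes.

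The Dntt cells held a median of 32758, 28136, 30243 and 29723 gene UMI, against 39012, 35362, 23326.5 and 24149 in the Dntt-negative cells, those with 0 Dntt UMI, of the same libraries. Dntt cells were thus shallower than Dntt-negative cells in LK and deeper in LSK, and a rule of 2 UMI takes more of a deeper population. Thinning each barcode to 7500 UMI before applying the rule left 5.56%, 5.28%, 11.5% and 9.10%, with both LSK libraries still above both LK libraries. A background group with high erythroid or neutrophil RNA (limits of 10 and 50 UMI per 10000) was defined after the data were seen. It did not take every cell above 10 UMI per 10000 of the erythroid list used below. In LSK, 568 and 559 Dntt-negative cells alone held at least 20 UMI per 10000 of that list. Which genes the limits of the group used is not given here. Its cells reached 2 Dntt UMI in 5 of 966 and 6 of 1458 cells in LK (0.518% and 0.412%). In LSK they did so in 1 of 37 and 5 of 39 cells (2.70%, exact interval 0.0684 to 14.2, and 12.8%, 4.30 to 27.4). Their medians were 48870, 44481.5, 40974 and 45879 UMI. The LK shares of Dntt cells were well above that background, whereas in LSK the background group was small and its interval in Ifnar-/- includes the 19.2% of Dntt cells. Free RNA, read in barcodes with at most 100 gene UMI, held 0.446, 0.458, 2.39 and 1.04 Dntt UMI per 10000, higher in LSK than in LK and higher in Ifnar+/- than in Ifnar-/- within LSK, as the shares were. The Dntt cells had medians of 2.85, 2.68, 2.22 and 1.81 Dntt UMI per 10000, and in LSK Ifnar+/- the free RNA value was near that median. A pooled share and a median of single cells are unlike measures, and neither gives how much free RNA entered a cell. The part of free RNA in the differences between libraries was not tested. The 4 P14 libraries shared 23 barcodes within the limits, and 1 of these was a Dntt cell in both of its libraries.

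**Figure D1:**
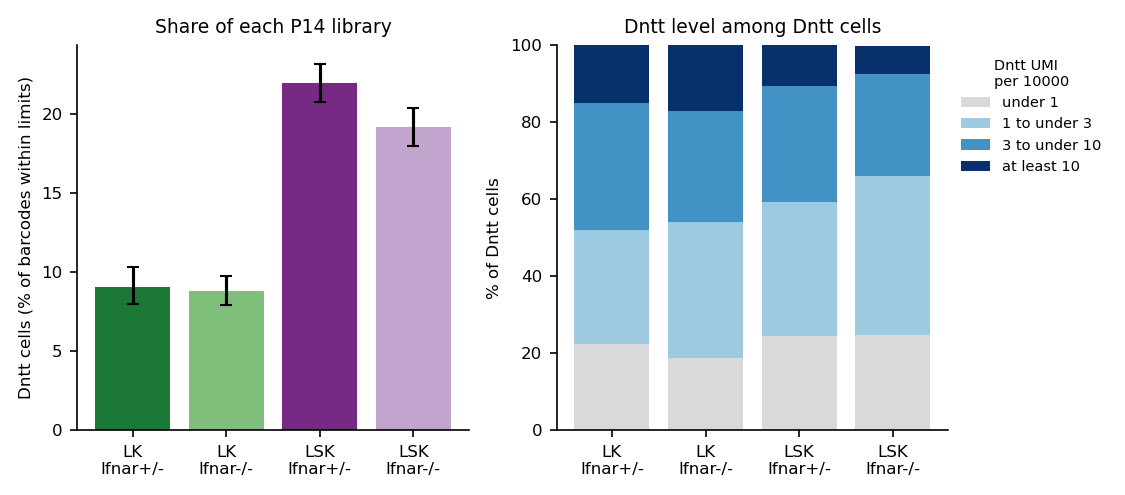
Left, Dntt cells as a percentage of the barcodes within limits in each P14 library, with exact 95% intervals as error bars; right, the Dntt cells of each library split by Dntt UMI per 10000 gene UMI, in percent. Both LSK libraries (22.0% and 19.2%) stand above both LK libraries (9.08% and 8.80%), and the class with at least 10 Dntt UMI per 10000 is larger in LK (15.1% and 17.0%) than in LSK (10.5% and 7.37%).

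Dntt itself stood at 482, 505, 376 and 328 CPM (counts scaled to the gene UMI of the summed cells) in the summed Dntt cells. Single cells ranged from the 2 UMI of the rule to 137, 195, 179 and 180 UMI, with medians of 9, 8, 6 and 5. At the edge of the rule, 37, 48, 196 and 169 cells had exactly 2 Dntt UMI and 81, 172, 424 and 405 barcodes had exactly 1. Cells just inside had Flt3 at 216, 163, 223 and 221 CPM and Ighm at 135, 134, 118 and 104 CPM, and cells just outside had Flt3 at 118, 109, 196 and 206 CPM and Ighm at 74.0, 73.8, 94.3 and 68.5 CPM. In both fractions the cells with 1 UMI thus lay between the Dntt-negative and the Dntt cells for these genes. Barcodes with at least 2 Dntt UMI that the B lineage limit set aside numbered 12, 33, 55 and 30. Those cells had Rag1 at 72.9, 160, 146 and 150 CPM, against 4.53, 2.83, 3.48 and 3.33 CPM in the Dntt cells kept, so the Rag1 level was many times higher beyond the B lineage limit.

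The markers that name these cells were not equally present. Flt3 RNA was found in 99.5%, 97.7%, 99.1% and 98.9% of Dntt cells at full depth and in 79.0%, 80.4%, 82.8% and 83.5% after thinning to 7500 UMI. Il7r RNA was found in only 29.7%, 26.3%, 16.6% and 14.5% at full depth, and in 13.2%, 14.0%, 9.66% and 7.85% after thinning. The erythroid and neutrophil background group, at its own full depth, had Il7r in 0.311% and 0.274% of LK cells and in 0 of 37 and 0 of 39 LSK cells. After thinning, 69.0%, 68.4%, 74.8% and 76.5% of Dntt cells had Flt3 without Il7r and 10.1%, 12.0%, 8.09% and 7.02% had both. In Dntt-negative cells 19.58%, 17.65%, 53.33% and 53.65% had Flt3 without Il7r, so in LSK this was common outside the Dntt cells too. The typical Dntt cell therefore had Flt3 RNA and no Il7r UMI.

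Among the receptors, 3 of the 17 genes of a cytokine receptor and Notch list were at least 2-fold higher in Dntt than in Dntt-negative cells in all 4 libraries, namely Flt3, Il7r and Notch1. Across all 12076 genes with at least 50 UMI in either group in every library, 78 genes (0.646%) passed 2-fold upward in all 4 and 179 (1.48%) passed it downward. With 5 CPM added to each level the counts were 28 and 17, with more higher than lower genes, and thinning to 7500 UMI gave 31 and 125. A gene could enter through the Dntt cells alone, as Il7r did in LK with 15 and 47 UMI in the negative cells, so these counts describe the libraries and test nothing. Flt3 was at 250, 227, 253 and 253 CPM in Dntt cells (log2 ratios 2.98, 3.15, 1.02 and 1.04). Its level in Dntt cells was nearly the same in the 4 libraries, and the smaller ratio in LSK came with negative cells at 125 and 123 CPM there, against 31.8 and 25.6 CPM in LK.

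Il7r stood at 26.8 CPM (exact Poisson 95% interval 23.3 to 30.6), 39.5 (35.8 to 43.5), 21.4 (19.9 to 23.0) and 18.4 (16.9 to 20.1) in Dntt cells and between 0.169 and 1.19 CPM in Dntt-negative cells. The log2 ratios were 7.27, 6.79, 4.76 and 3.95. Notch1, the receptor that directs progenitors to the T lineage, stood at 160, 169, 148 and 143 CPM, with log2 ratios of 2.85, 3.29, 1.40 and 1.22. Il2rg, the common chain shared by the receptor of Il7 and related cytokines, did not follow: its log2 ratios were 1.05, 0.99, -0.17 and -0.11. Kit was level with the negative cells (0.03, -0.04, -0.20 and -0.15). Tnfrsf13c, the receptor of the B cell survival factor BAFF, was higher in LK (2.22 and 2.12) and level in LSK (-0.03 and -0.09).

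The antibody tags gave a second readout, at the cell surface. Of the 10 tags, 1, SA_PE, has no stated target and its values are not given. CD135, the protein of Flt3, had a median of 85, 71, 64 and 80 tags per Dntt cell against 8, 9, 27 and 32 per Dntt-negative cell. As a share of all tags it was 4.49, 4.05, 1.65 and 1.62 times that of the negative cells. CD127, the protein of Il7r, had medians of 7, 8, 4 and 5 tags against 3, 3, 2 and 3, and its tag share was 3.31, 3.40, 2.5 and 1.61 times higher. By tag share these were the 2 tags at least 1.5-fold higher in every library. By median count per cell CD34 was also above 1.5-fold, at 3.71, 4.79, 1.68 and 1.67 times the negative cells, while its share was 1.85, 2.06, 1.24 and 1.17 times. CD150, CD41 and CD201, carried by stem cells, megakaryocyte precursors or both, were the 3 tags at least 1.5-fold lower by share in every library, with CD150 at 0.109, 0.106, 0.180 and 0.167 times the negative cells by share and at 0.40, 0.265, 0.462 and 0.50 times by median count. The median CD201 count in LK was not lower, at 3 and 4 tags in Dntt cells against 3 and 3 in negative cells. CD16_32, an Fc receptor of myeloid progenitors, was at 0.179 and 0.174 times in LK and at 0.672 and 0.617 times in LSK by share, but its median count was at 0.547, 0.677, 1.0 and 0.909 times, so no lower count was seen in LSK Ifnar+/-.

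Of the recombination and end joining genes, Rag2 alone of the 11 that entered was at least 2-fold higher in all 4 libraries, beside 0.646% of all genes that entered. Its level was 9.56 CPM (7.53 to 12.0), 12.3 (10.2 to 14.6), 10.6 (9.57 to 11.8) and 8.02 (7.0 to 9.15) in Dntt cells, against 0.663, 0.611, 1.10 and 0.963 CPM in negative cells. Rag1, the partner subunit, rested on 36, 30, 118 and 92 UMI and missed the minimum of 50 in LK; its 4.53, 2.83, 3.48 and 3.33 CPM stood against 0.0226 to 0.318 CPM. After thinning, 8.22%, 12.9%, 8.28% and 7.13% of Dntt cells had a Rag1 or Rag2 UMI. Xrcc6, the Ku70 subunit that binds DNA ends, was higher by less than 2-fold (log2 0.93, 0.96, 0.71 and 0.58), while Prkdc, its kinase partner, was level (-0.04, 0.02, -0.06 and -0.09). No gene of the list was at least 2-fold lower in all libraries.

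Of 27 lymphoid transcription factors that entered, 2 passed 2-fold upward in all 4 libraries and 1 downward, beside 0.646% and 1.48% of all 12076 genes. By any amount 16 of the 27 were higher in all 4, as were 16.3% of all genes. Satb1, a chromatin organiser known in early lymphoid cells, stood at 220, 209, 204 and 190 CPM against 40.6, 29.6, 86.8 and 75 CPM. Nfil3, required for NK and innate lymphoid cells, stood at 7.80, 7.45, 9.84 and 10.1 CPM against 1.73, 1.06, 2.19 and 1.74 CPM. Id1, an inhibitor of E protein factors, was the lower gene, at 3.90, 5.18, 3.62 and 3.33 CPM against 16.8, 14.5, 12.1 and 13.3 CPM. Ets1 came close to the limit in LSK (log2 2.55, 2.53, 0.79 and 1.06), and Mef2c (1.47, 1.45, 0.40 and 0.32) and Ikzf1 (0.79, 0.73, 0.47 and 0.52) were higher by less. Pax5, which commits cells to the B lineage, had 0, 2, 1 and 1 UMI in all Dntt cells.

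Ccr9, a chemokine receptor that guides progenitors to the thymus, was the 1 gene of 13 in the homing list at least 2-fold higher throughout, beside 0.646% of all genes. It stood at 47.3 CPM (42.6 to 52.3), 38.8 (35.2 to 42.8), 33.8 (31.9 to 35.8) and 41.6 (39.3 to 44.1) against 0.257 to 1.76 CPM in negative cells. Ccr7, another receptor used on the way to the thymus, stood at 5.54, 5.56, 5.13 and 5.09 CPM against 0.169, 0.189, 1.10 and 1.01 CPM and missed the UMI minimum. Cd27 and Cd34 were higher in LK (log2 1.51 and 1.75, 1.31 and 1.58) and closer to the negative cells in LSK (0.38 and 0.42, 0.31 and 0.38).

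RNA from constant regions of an antibody locus and a T cell receptor locus was present. These counts do not show whether either locus had been recombined. Ighm, the constant region of the mu heavy chain, stood at 250, 246, 218 and 189 CPM against 23.4, 17.0, 31.7 and 23.4 CPM, and was found in 96.3%, 96.2%, 94.97% and 92.4% of Dntt cells. Trbc2, a constant region of the T cell receptor beta chain, stood at 61.5, 87.4, 73.2 and 98.4 CPM against 3.23, 3.27, 13.6 and 14.1 CPM, and was found in 37.0%, 37.7%, 40.4% and 44.5%. Trbc1 and Trbc2 are near-identical in sequence, so the split of reads between them is uncertain. Of genes of later lineage stages, Cd3e had 0 UMI in all 4 libraries and Igll1, a surrogate light chain of pro-B cells, had 1, 0, 4 and 2 UMI. Blnk, also of the B lineage list, was present. It stood at 0.432, 0.406, 0.543 and 0.918 CPM in Dntt cells with under 1 Dntt UMI per 10000. With at least 10 it stood at 23.1, 15.2, 11.3 and 7.25 CPM. In Dntt-negative cells it stood at 0.236, 0.143, 0.294 and 0.238 CPM. The T lineage factors Tcf7 (2, 99, 88 and 85 UMI) and Bcl11b (1, 42, 33 and 125 UMI) were present, in 2, 7, 8 and 11 Dntt cells and in 1, 4, 4 and 8 Dntt cells.

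The 10 genes with the largest least ratio over the 4 libraries were Cmah, Ccr9, Cox6a2, Il7r, Arpp21, Gm19331, Gm30948, Rasal1, Rag2 and Ighm. Cmah, an enzyme that makes a sialic acid form, led with log2 ratios of 4.59, 5.26, 4.66 and 4.75 at 18.0, 19.4, 10.1 and 7.16 CPM. Cox6a2, a subunit of cytochrome c oxidase, stood at 36.4, 38.2, 19.6 and 12.1 CPM, and Arpp21, a phosphoprotein, at 39.9, 47.1, 35.3 and 34.9 CPM. Cmah and Cox6a2 were higher in both LK libraries than in both LSK libraries.

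The 10 lower genes were Cavin2, Csrp3, S100a8, S100a9, Mt2, Epor, Mfsd2b, Sdsl, Treml1 and Rhag, among them genes of platelets (Cavin2, Treml1), red cells (Epor, Rhag) and neutrophils (S100a8, S100a9). Cavin2 had 5, 1, 4 and 3 UMI in Dntt cells against 1167, 2002, 261 and 231 in negative cells. By list, 5 of 6 megakaryocyte genes, 8 of 11 erythroid genes, 1 of 8 neutrophil genes and 4 of 19 stem cell genes were at least 2-fold lower in all libraries, beside 1.48% of all genes that entered. The 4 stem cell genes were Slamf1, Gata2, Tek and Vwf, of which Vwf is in the megakaryocyte list too. Median log2 ratios of the erythroid list were -3.46, -3.49, -2.44 and -1.48, against 0.07, 0.05, -0.06 and -0.07 over all genes that entered. Of the monocyte and dendritic list 2 of 13 genes were at least 2-fold lower in all libraries, and of the basophil, mast cell and eosinophil list 1 of 3. The lists of 57 interferon genes, 20 G1/S genes and 11 stress genes had no gene 2-fold apart in all libraries in either direction. Those of 6 B lineage and 6 T and NK genes had 1 higher each (Ighm and Trbc2), beside 0.646% of all genes, and none lower.

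**Figure D2:**
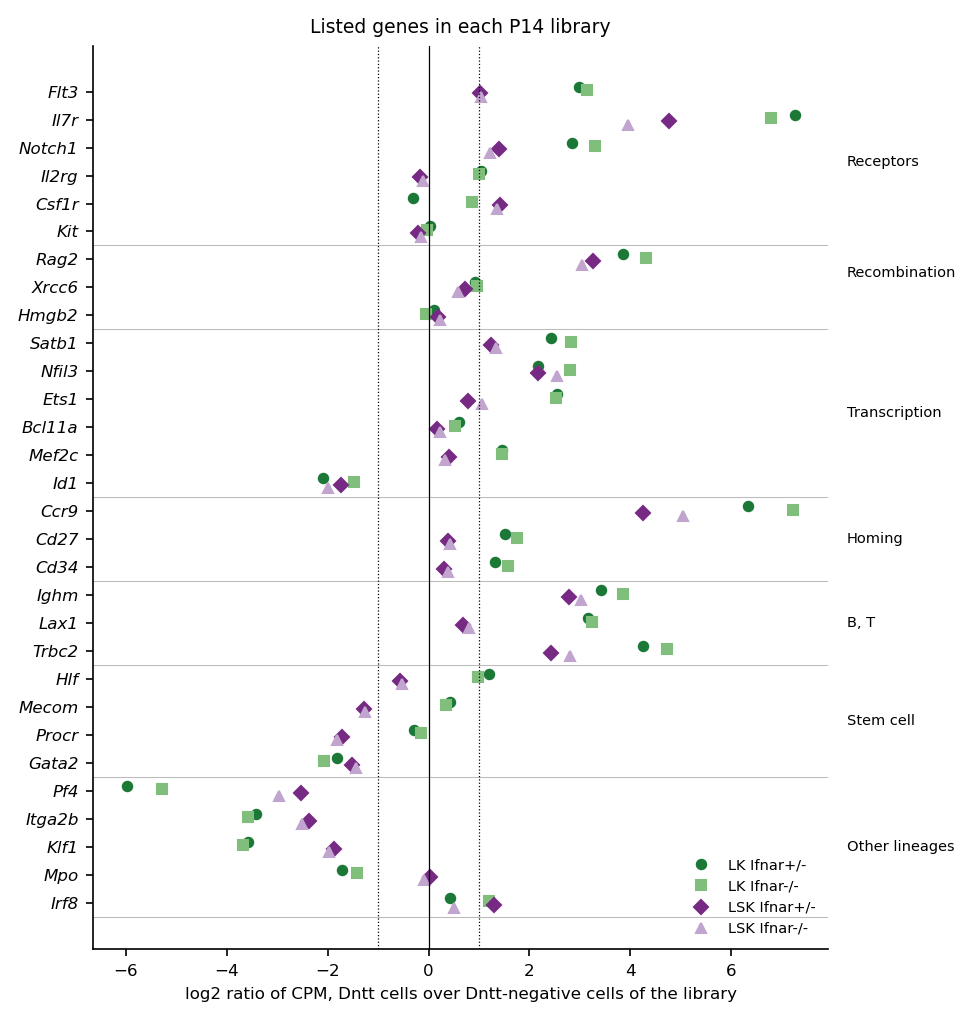
Log2 ratio of CPM in Dntt cells over Dntt-negative cells of the same library (x axis) for listed genes (y axis), with 1 symbol per P14 library; dotted lines mark 2-fold. Il7r, Rag2, Ccr9, Ighm and Trbc2 lie beyond 2-fold higher in all 4 libraries, while Hlf and Mecom lie above 0 in LK and below 0 in LSK.

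Of the 19 stem cell genes, 10 were lower in all 4 libraries, as were 24.9% of all 12076 genes, and the list medians were -0.30, -0.16, -1.28 and -1.22. Some members differed between the fractions. Hlf, a factor of stem and multipotent cells, was higher in Dntt than in negative cells in LK (log2 1.21 and 0.98) and lower in LSK (-0.57 and -0.53). Mecom did the same (0.42 and 0.35, then -1.28 and -1.26), and Procr was near level in LK (-0.30 and -0.16) and lower in LSK (-1.72 and -1.82). The levels in Dntt cells were 184, 131, 304 and 305 CPM for Hlf and 3.90, 3.58, 9.17 and 9.76 CPM for Procr. In negative cells Hlf was 79.5, 66.3, 451 and 440 CPM, so Dntt cells of the 2 fractions were closer to each other than the negative cells were.

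To set the Dntt cells against more similar cells, Dntt-negative cells with at least 2 Flt3 UMI (553, 712, 1942 and 1974 cells) were used as a comparator. Of 10606 genes, 44 (0.415%) passed 2-fold upward in Dntt cells in all 4 libraries and 40 (0.377%) downward. The 40 became 74 without the LK Ifnar+/- library, 85 with at least 5 Dntt UMI and 5 with 5 CPM added. Without Dntt cells with at least 5 lineage UMI per 10000 the 40 became 123. Comparator cells were not filtered in that way, so this rise follows in part by construction. The 44 became 14 after thinning and 16 with 5 CPM added. Flt3 itself chose the comparator and was left out. Il7r stood at 0.33, 0.30, 0.40 and 0.507 CPM in the comparator (log2 ratios 6.25, 6.94, 5.71 and 5.16), so Flt3 RNA alone did not go with Il7r RNA. Cmah, Ccr9, Arpp21 and Cox6a2 completed the 5 higher genes. Rag2 (2.23, 2.86, 2.83 and 2.75), Ighm (2.0, 2.09, 2.32 and 2.60), Trbc2 (2.95, 3.06, 2.06 and 2.39) and Nfil3 (1.44, 1.71, 2.0 and 2.37) were also beyond 2-fold throughout.

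Against the same comparator the 5 lower genes were Tie1, Procr, Samd12, Tek and Pf4. Tie1 and Tek, receptors of the angiopoietin system found on stem and endothelial cells, had log2 ratios of -1.97, -2.21, -1.74 and -1.82 and of -1.62, -3.13, -1.58 and -1.80. Procr was lower by a similar amount in both fractions here (-1.74, -1.82, -1.63 and -1.70), and Mecom was lower in both (-0.77, -1.12, -1.15 and -1.16). Hlf (-0.19, -0.73, -0.68 and -0.63) no longer pointed opposite ways in LK and LSK. Mpo, an enzyme of neutrophil granules, was lower in LK (-1.68 and -1.55) and level in LSK (0.07 and 0.01).

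Dntt cells were not uniform in Dntt level, and some lymphoid genes differed with it while others did not. In the classes under 1, 1 to under 3, 3 to under 10 and at least 10 Dntt UMI per 10000 fell 22.4%, 29.7%, 32.9% and 15.1% of LK Ifnar+/- Dntt cells, and 24.7%, 41.3%, 26.6% and 7.37% of LSK Ifnar-/- Dntt cells. The classes cut a range and are not cell types, and the lowest class holds the deepest cells by construction of the rule (median 42508, 34580, 39892 and 37952.5 UMI against 25928 to 30325.5 in the classes above).

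Il7r differed strongly between the classes. From the lowest to the highest class it was 6.05, 18.0, 24.3 and 97.0 CPM in LK Ifnar+/-, 7.32, 13.1, 66.2 and 105 CPM in LK Ifnar-/-, 5.16, 5.44, 25.8 and 123 CPM in LSK Ifnar+/- and 3.79, 7.88, 24.7 and 119 CPM in LSK Ifnar-/-. Each library was higher at each step, though the intervals overlapped at the first step in LK Ifnar-/- and LSK Ifnar+/- and at the next step in LK Ifnar+/-, and the top class was similar in all 4. The CD127 tag had medians of 3 to 5 in the lowest class and of 54, 33, 21 and 36 in the highest, so the tag and the RNA of Il7r were both highest in the top class. Rag2 reached 14.4, 30.4, 33.6 and 29.0 CPM and Rag1 9.61, 7.61, 17.1 and 15.5 CPM in the top class. Both were below the 53.2 to 76.0 CPM of Rag2 and the 72.9 to 160 CPM of Rag1 in the cells set aside for B lineage genes.

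Ighm went from 118, 120, 123 and 118 CPM in the lowest class to 416, 406, 415 and 402 CPM in the highest, a close match across libraries at both ends. Notch1 went from 89.4, 87.8, 95.5 and 98.7 CPM to 285, 299, 286 and 260 CPM. Flt3 differed less, from 194, 166, 204 and 215 CPM to 290, 286, 313 and 318 CPM. Hlf went down from 244, 154, 371 and 328 CPM to 15.4, 39.3, 66.5 and 94.3 CPM, and Mecom from 28.1, 23.2, 56.5 and 53.6 CPM to 5.76, 6.34, 13.6 and 18.1 CPM. Kit ended at 133, 130, 149 and 167 CPM after 221, 173, 218 and 224 CPM, and the median CD117 tag, its protein, at 523, 502, 477.5 and 536.5 after 1077, 867, 814 and 844.5. Ebf1, held under the B lineage limit by the rule, reached 58.6, 50.1, 78.2 and 48.7 CPM in the top class.

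**Figure D3:**
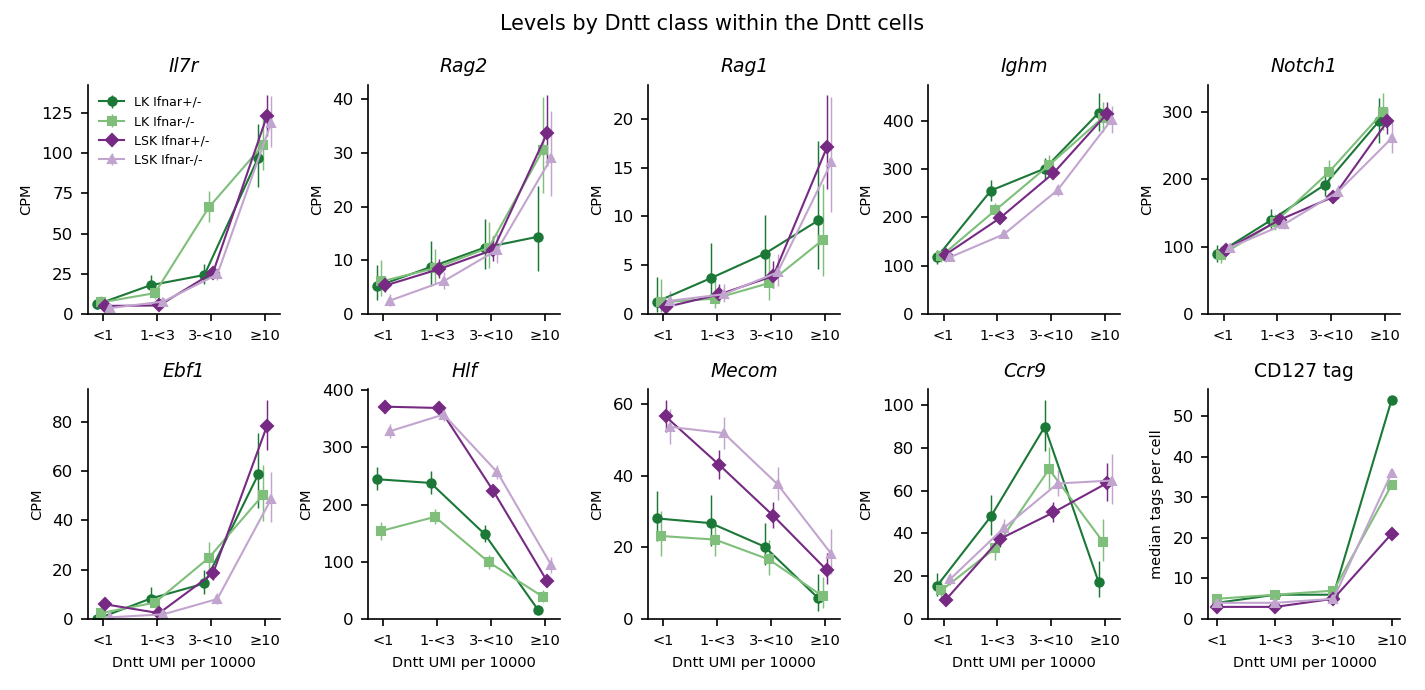
Level of 9 genes in CPM (with exact Poisson 95% intervals) and the median CD127 tag count per cell, by class of Dntt UMI per 10000 gene UMI (x axis), with 1 line per P14 library. Il7r and the CD127 tag are highest in the last class, Ighm and Notch1 are higher at every step, Hlf and Mecom are lowest in the last class, and Ccr9 is lower in the last class than in the one before in the LK libraries.

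Not every higher gene was highest in the top class. Trbc2 was 63.4 and 110 CPM in the top class in LK, after 80.8 and 133 CPM in the class before, and 104 and 183 CPM after 95.1 and 134 CPM in LSK. Il2rg was 45.4, 41.1, 44.8 and 47.5 CPM in the lowest class and 25.9, 31.7, 43.3 and 48.7 CPM in the highest. Ccr9 went from 15.6, 13.4, 8.97 and 18.6 CPM to 89.9, 70.0, 49.8 and 63.4 CPM in the third class, then was 17.3 and 36.1 CPM in the top class in LK and 63.6 and 64.8 CPM in LSK. Ccr9 RNA was also held by few cells: 45, 65, 231 and 200 Dntt cells had any Ccr9 UMI, and the 10% of cells with the most Ccr9 held 87.0%, 89.8%, 81.8% and 80.7% of it. The 10% of cells with the most Ighm held 23.0%, 24.0%, 26.5% and 28.9%, and for Flt3 20.2%, 21.8%, 22.1% and 22.9%. For Il7r these were 64.8%, 73.5%, 89.3% and 92.0%, so in LSK Il7r was held by few cells to a greater degree than Ccr9.

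Dntt cells were therefore split, after these values had been seen, by at least 2 UMI of Ccr9 and of Il7r. Cells with Ccr9 only made up 12.3% (27 cells), 10.8% (37), 13.3% (135) and 13.8% (116), and cells with Il7r only 16.0% (35), 18.1% (62), 8.78% (89) and 7.49% (63). Both were seen in 4.57% (10 cells), 2.34% (8), 2.27% (23) and 2.85% (24). Among Il7r cells 22.2%, 11.4%, 20.5% and 27.6% had Ccr9, against 15.5%, 13.6%, 15.0% and 15.4% of the others. Except in LSK Ifnar-/- (18.5 to 38.2% against 12.9 to 18.2%) the exact intervals of these shares overlapped.

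Cells with Ccr9 only and cells with Il7r only differed in the other genes. Trbc2 was 150, 134, 157 and 199 CPM in Ccr9-only cells and 42.4, 67.7, 85.0 and 159 CPM in Il7r-only cells. Lax1, a lymphocyte adaptor, was 70.4, 78.5, 54.3 and 77.0 CPM against 29.4, 27.4, 37.7 and 43.0 CPM, and Ccr7 16.4, 17.2, 13.4 and 14.7 CPM against 5.22, 5.76, 7.01 and 4.19 CPM. All 3 genes were higher in the Ccr9-only cells of every library. Hlf was 404, 199, 420 and 442 CPM in Ccr9-only cells and 32.6, 37.0, 97.2 and 111 CPM in Il7r-only cells.

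In the other direction, Irf8, a factor of monocytes and dendritic cells, was 178, 183, 85.0 and 56.0 CPM in Il7r-only cells and 21.4, 46.0, 21.9 and 11.1 CPM in Ccr9-only cells. Cox6a2 (90.1, 95.5, 81.5 and 63.6 CPM against 20.1, 35.4, 16.9 and 7.19 CPM), Cmah (48.3, 50.9, 42.9 and 28.2 CPM against 7.55, 30.6, 16.1 and 8.68 CPM) and Rag2 (20.2, 24.5, 30.1 and 28.6 CPM against 7.55, 14.4, 7.64 and 6.59 CPM) were also higher with Il7r. Dntt was 1070.0, 1017, 975 and 878 CPM in Il7r-only cells and 278, 435, 423 and 350 CPM in Ccr9-only cells. The median CD127 tag was 54, 38.5, 44 and 37 in Il7r-only cells and 6, 8, 4 and 5 in Ccr9-only cells. In cells with neither it was 5, 6, 3 and 4. CD127 is the protein of Il7r, whose RNA made the split, so the tag went with Il7r RNA and is no separate check of the split. Median depth was 40852, 32524.5, 34481 and 41148 UMI with Il7r only and 24627, 23833, 23984 and 23585 UMI with Ccr9 only, and the part of depth in the split was not tested.

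**Figure D4:**
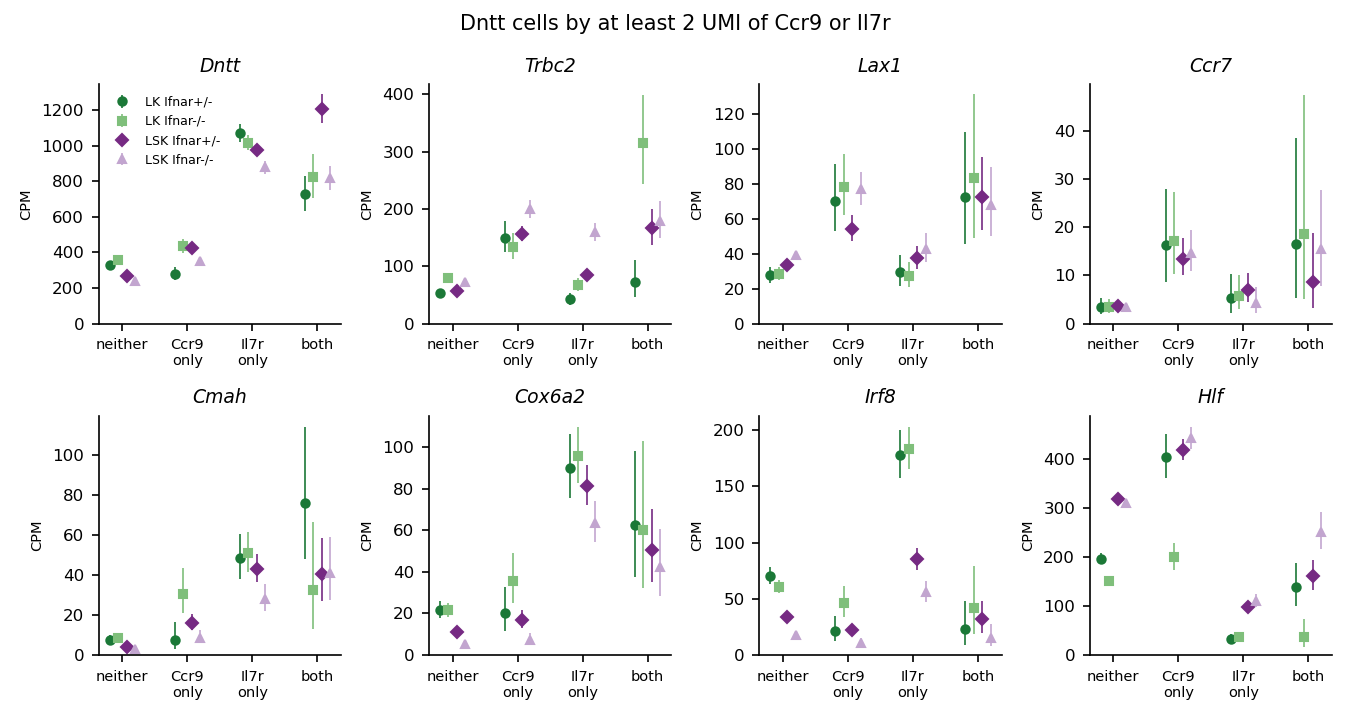
Level in CPM, with exact Poisson 95% intervals, of 8 genes in Dntt cells split by at least 2 UMI of Ccr9 or Il7r (x axis), with 1 symbol per P14 library. Trbc2, Lax1 and Hlf are higher in Ccr9-only than in Il7r-only cells and Dntt, Cmah, Cox6a2 and Irf8 lower, in each of the 4 libraries.

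Ly6d, a surface protein that marks lymphoid progenitors turning to the B lineage, was rarer still. It lies at chr15:74762056-74763567. It was found in 7, 13, 12 and 10 Dntt cells, and the 5 cells with the most held 95.7%, 83.7%, 89.2% and 94.8% of its 46, 135, 139 and 115 UMI. The summed levels of 5.79, 12.7, 4.10 and 4.16 CPM thus rest on a handful of cells. Cells with at least 20 UMI per 10000 of the T and NK list held 0%, 51.1%, 0% and 36.5% of it. In the same way the 5 cells with the most Elane, a neutrophil protease, held 87.7%, 67.1%, 87.5% and 97.3% of that gene's 341, 222, 16 and 261 UMI.

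RNA of other lineages was therefore counted over the Dntt cells. At least 20 UMI per 10000 of the neutrophil list were found in 14, 7, 8 and 6 cells, and of the erythroid list, which includes globins, in 9, 12, 89 and 68 cells. No Dntt cell reached that level for the megakaryocyte list, of which 2, 2, 1 and 1 of 8 genes were at 0. Scrublet's own threshold marked 0 to 0.498% of barcodes and so did not work as a doublet filter. The likely doublets named below are instead the 47, 121, 170 and 154 barcodes with the highest Scrublet scores. Their number was set beforehand at 0.8% per 1000 barcodes, and whether they were doublets was not tested. In an alternative chosen after the data were seen, cells with at least 20 UMI per 10000 of any of the 3 lists were left out. This kept 196, 323, 917 and 767 Dntt cells. It gave 71 genes beyond 2-fold upward and 205 downward against Dntt-negative cells, where all Dntt cells gave 78 and 179. The limit was set on the Dntt cells and not on the Dntt-negative cells, so more lower genes follow in part by construction.

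Between the fractions, Dntt cells differed by few genes. Of 11155 genes, 21 (0.188%) passed 2-fold upward in LSK over LK Dntt cells in both genotypes and 21 (0.188%) downward. The 5 higher genes were Triqk, Plscr4, Scarf1, Col4a2 and Procr. Procr, the stem cell protein C receptor, had log2 ratios of 1.21 in Ifnar+/- and 1.43 in Ifnar-/-, and Col4a2, a basement membrane collagen, 1.68 and 1.22. In the stem cell list all 16 genes that entered were higher in LSK in both genotypes, as were 41.5% of all 11155 genes, and 2, Procr and Fgd5, by at least 2-fold.

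Lower in LSK Dntt cells were Ermap, Gm15915, Ly6c2, Mt1 and Car1, which include red cell (Ermap, Car1) and monocyte (Ly6c2) genes. Ermap had 57 and 100 UMI in LK Dntt cells and 4 and 7 in LSK Dntt cells. Among 21 lower genes were 4 of the neutrophil list (Elane, Mpo, Ctsg and Ms4a3), 3 of the erythroid list and 3 of the monocyte and dendritic list. Of the 8 B lineage genes that entered, 1, Blnk, was lower as well, and 0 were at least 2-fold higher. Mpo stood at 421 and 375 CPM in LK and at 195 and 156 CPM in LSK Dntt cells. Cells with at least 20 lineage UMI per 10000 were chosen by the neutrophil, erythroid and megakaryocyte lists. Leaving them out takes away RNA of these lists by construction. The count of lower genes was then 6, and 17 genes were higher. Both counts depended on the cells and settings used: they were 8 higher and 10 lower without likely doublets, 2 and 1 without cells with at least 5 lineage UMI per 10000, 10 and 7 with at least 5 Dntt UMI, and 0 and 12 with 5 CPM added. In Il7r the fractions did not differ by 2-fold in both genotypes (-0.33 and -1.10), nor in Rag2 (0.15 and -0.61) or Ccr9 (-0.49 and 0.10).

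The G2M list, genes of dividing cells, was read as the share of cells with its UMI at a fixed depth. At least 3 G2M UMI after thinning to 5000 UMI were found in 65.3%, 59.1%, 62.2% and 60.6% of Dntt cells. In Dntt-negative cells the shares were 65.9%, 67.1%, 46.0% and 46.3%, and in the Flt3 comparator 60.76%, 59.41%, 50.36% and 49.95%. The LSK Dntt cells thus exceeded their negative neighbours by 16.2 points (Newcombe interval 12.7 to 19.6) and 14.4 points (10.6 to 18.1). In LK the differences were -0.639 points (-7.46 to 5.70) and -8.04 points (-13.6 to -2.71). Counting cells with at least 1 G2M UMI, the differences were -1.91 and -2.91 points in LK and 10.3 and 7.90 points in LSK, and both LK intervals then spanned 0. None of the 20 G2M genes was at least 2-fold apart from Dntt-negative cells in all libraries. By any amount 10 were higher in all 4 and 0 lower, beside 16.3% and 24.9% of all 12076 genes. Between the fractions all 20 were higher in LSK than in LK Dntt cells in both genotypes, with medians of 0.15 and 0.29 on the log2 scale, beside 41.5% of all 11155 genes and all-gene medians of 0.03 and 0.07. The shares of Dntt cells given above did not follow these summed levels. At 3 UMI the share was lower in LSK than in LK in Ifnar+/- and higher in Ifnar-/-. At 1 UMI it was 84.4% in LSK against 85.8% in LK in Ifnar+/-, and 83.1% against 85.4% in Ifnar-/-. The exact intervals of these shares overlapped.

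The comparison of genotypes asked which RNAs of Dntt cells differ without the type I interferon receptor. Type I interferon signals through Ifnar1 and Ifnar2 and switches on a broad set of antiviral genes. Ifnar1 (chr16:91485032-91510523) was still counted in Ifnar-/- Dntt cells, at 35.6 and 36.2 CPM in LK and LSK against 41.1 and 40.5 CPM in Ifnar+/-, and Ifnar2 stood at 113 and 116 CPM against 109 and 114 CPM. The labels do not describe the allele or say which of the receptor genes is meant, so these 3' counts do not check the genotype.

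Interferon-responsive genes were lower in Ifnar-/- Dntt cells of both fractions. Of 9675 genes, 20 (0.207%) were at least 2-fold lower in both LK and LSK and 1 (0.0103%) was at least 2-fold higher. The 20 became 9 without cells with at least 5 lineage UMI per 10000, which left 67, 98, 326 and 249 Dntt cells. Of the 20, 14 belonged to the interferon list (Isg15, Oas1a, Oasl2, Irf7, Irf9, Ifi27, Ifi27l2a, Ifi44, Dhx58, Rtp4, Xaf1, H2-K1, H2-D1 and Slfn8), and the other 6 were Wdfy1, Ifi206, Isg20, Ddx60, Tgtp2 and H2-Q4. H2-K1, H2-D1 and H2-Q4 are similar genes of the major histocompatibility complex whose reads may be split between them.

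Ifi44 had 56 UMI in LK and 238 UMI in LSK Ifnar+/- Dntt cells and 0 in both Ifnar-/- libraries, at least 24.9-fold lower in LK and at least 64.7-fold lower in LSK with a floor of 3 UMI per library. Oas1a, a sensor of double-stranded RNA, had 55 and 217 UMI against 1 and 2. Rtp4 stood at 27.7 and 32.0 CPM in Ifnar+/- and 1.51 and 2.42 CPM in Ifnar-/- (log2 -4.16 in LK and -3.71 in LSK), Ifi206 at 6.79 and 7.69 CPM and 0.660 and 0.903 CPM (-3.28 and -3.06), and Ifi27 at 71.6 and 86.6 CPM and 10.5 and 12.1 CPM (-2.77 and -2.83). Irf7, a factor that amplifies the interferon response, was lower by more in LK (-3.14) than in LSK (-1.89), at 12.8 and 14.8 CPM in Ifnar+/-.

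Over the 74 interferon list genes with at least 20 UMI the median log2 ratio was -0.99 in LK, where 71 genes were lower in Ifnar-/-, and -0.75 in LSK, where 73 were. The median of all 13779 genes with that minimum was -0.04 and 0.00, and 57.1% and 50.7% of them were lower. With list genes at 0 set to the floor the medians were -0.92 and -0.75. In Dntt-negative cells of the same libraries the medians were -0.70 and -0.68, and in the Flt3 comparator -0.62 and -0.68. Whether Dntt cells differ from these cells in the size of this difference was not tested.

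The genotypes also differed in sex makeup. Of Dntt cells with Y-linked or Xist RNA but not both, 64.0% and 61.4% were Y-linked in Ifnar+/- LK and LSK and 38.4% and 39.1% in Ifnar-/-. Within Y-linked cells alone the interferon medians were -0.88 and -0.80, and within Xist cells alone -1.13 and -0.75, so the medians were below 0 within each set. The counts of genes at least 2-fold lower were 13 and 11 in these smaller sets.

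**Figure D5:**
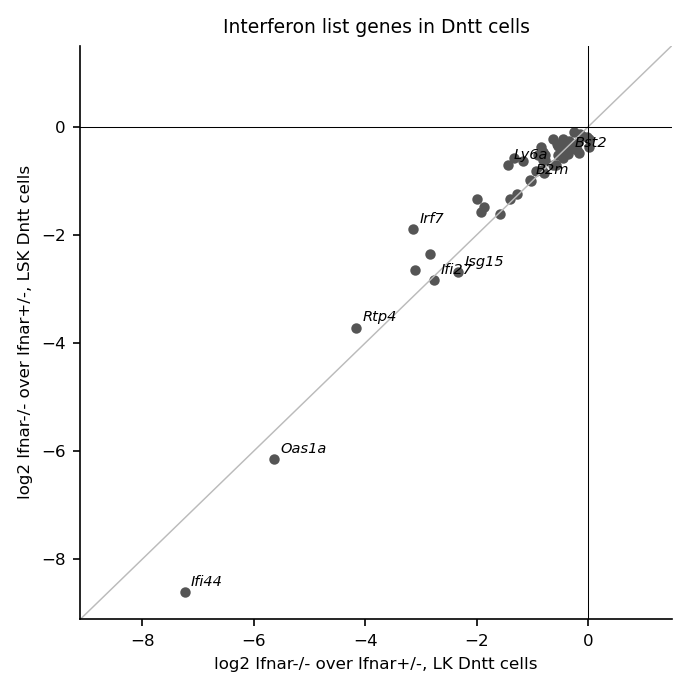
Log2 ratio of Ifnar-/- over Ifnar+/- in LK Dntt cells (x axis) against LSK Dntt cells (y axis) for each interferon list gene with at least 50 UMI in a library of both pairs; 0.5 counts were added, so the place of Ifi44, at 0 UMI in Ifnar-/-, depends on that value. Of the 54 genes, 52 lie below 0 in both fractions, as do 28.9% of all 9675 genes.

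No gene of the receptor, recombination, transcription factor, homing or B lineage lists was at least 2-fold apart in both fractions, and since only 0.0103% and 0.207% of all genes passed upward and downward, a count of 0 says little about these lists. Il7r had log2 ratios of 0.56 in LK and -0.22 in LSK, Rag2 of 0.35 and -0.41, Ighm of -0.02 and -0.21, Flt3 of -0.14 and 0.00, Notch1 of 0.08 and -0.05 and Ccr9 of -0.28 and 0.30. With 1 library for each genotype and fraction, ratios of this size cannot be told apart from differences between preparations.

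The 1 higher gene was Trbc1, at 23.1 against 4.15 CPM in LK and 15.2 against 7.16 CPM in LSK (log2 2.46 and 1.08). Its RNA sat in few cells, the top 5 of which held 81.8%, 89.4%, 72.0% and 67.6% of 33, 245, 243 and 420 UMI. At least 20 UMI per 10000 of the T and NK list were found in 0, 3, 1 and 4 Dntt cells. Without these 8 cells Trbc1 had ratios of 1.26 in LK and 0.54 in LSK, and no gene was at least 2-fold higher in both fractions. Trbc2, whose reads may be split with Trbc1, then had ratios of 0.47 in LK and 0.37 in LSK, both under 2-fold. Trbc1 and Trbc2 are themselves members of that list. Leaving out cells chosen by the list takes away their UMI by construction, so the lower Trbc1 ratios test nothing. The next 4 by the same order, Aqp1, Ddit4, Klf9 and Gm42031, had ratios of 0.71 to 1.09, and Aqp1, a water channel of red cells, is in the erythroid list.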

How the data were processed

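The deposited files hold counts: raw UMI per feature and barcode for 32285 genes and 10 antibody tags, with no cell filter and no normalization. The matrices came from Cell Ranger 4 per the file headers, while the submitters' processing notes name Cell Ranger 6.0.1 and mm10; how reads were assigned to genes is not given in the sources used here. Libraries were 10x Genomics 3' libraries per the labels.

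The cells and gene lists were chosen with earlier results of these data known. UMI were summed over the cells of each group within a library and scaled to CPM of gene UMI, and log2 ratios were taken after adding 0.5 counts, within a library for cell groups and within a fraction or genotype otherwise. The 50 UMI minimum had to be met by either group of every pair. Dntt cells held 7948637 to 33929713 UMI per library in sum. Each group had 1 library, so no p-value was computed. Intervals are exact Poisson (CPM), exact Clopper-Pearson (shares) or Newcombe (differences) at 95% and cover counting error only. Named genes were the 10 higher and 10 lower (5 and 5 for the other comparisons) with the largest least absolute ratio of 1 sign, without the rule's genes and sex-linked genes, plus list members. The lists missed Azu1, Mx1 and Mx2 in the features. Scrublet scores came from scanpy 1.11.5, TMM factors from edgeR 4.0.16. On simulated counts for the Dntt against Dntt-negative comparison (12091 genes), 82.0% of genes changed 2.5-fold, 98.0% changed 3-fold and 0 of 11892 unchanged genes were called. The simulated sums were Poisson draws around 1 rate per gene and library. They lacked the unevenness between cells and between preparations of the real data, so they give no rate of false calls for it.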

Additional observations from a re-analysis of the deposited data

Results flagged for a closer look

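Newborn libraries entered no comparison above. In the P0 LSK Ifnar+/- library 7 of 5122 barcodes met the rule (0.137%, exact 95% interval 0.0550 to 0.281%), above the 3 cells that a count of 0 allows; the other 3 newborn libraries held 2, 2 and 1.

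The G2M share of Dntt cells minus that of Dntt-negative cells was -0.639 and -8.04 points in LK and 16.2 and 14.4 points in LSK. The LK Ifnar+/- value has no settled sign, with an interval of -7.46 to 5.70 and 0.701 points after thinning to 2000 UMI. A negative difference in LK thus rests on the Ifnar-/- library. Its Dntt cells, at 59.06%, were near its Flt3 comparator cells, at 59.41%. The difference between fractions was not tested, and the share of Dntt-negative cells differed more between fractions than that of Dntt cells.

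For 8 list genes both LK libraries and both LSK libraries pointed opposite ways by at least 0.3 on the log2 scale (Dntt over Dntt-negative, in the order used above), and this too was not tested. They were Mecom (0.42, 0.35, -1.28 and -1.26), Hlf (1.21, 0.98, -0.57 and -0.53), Meis1 (0.66, 0.38, -0.65 and -0.56), Ly6a (1.73, 1.17, -0.44 and -0.60), Hbb-bt (0.42, 0.37, -1.21 and -1.33), Trim30a (0.67, 0.52, -0.33 and -0.60), Gbp2 (1.14, 0.99, -0.42 and -0.44) and Rsad2 (0.60, 0.68, -0.35 and -0.73). Ly6a encodes Sca1, on which the fractions were sorted.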

How the results depend on the processing

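Libraries could not be paired with each other because each group has 1 library and the labels give no replicate numbers. Dntt cells were paired with other cells of the same library. The 4 libraries are 4 different groups and not replicates, and no paired test was run. With TMM or median-of-ratios factors, log2 ratios of LK Dntt over Dntt-negative cells shifted by -0.107 to -0.136, and no count left the range of 1.5 times its value. Over 18 results, 106 recomputed values stayed within their limits and 48 moved. A count was kept if within 1.5 times its value, and it has no sign that could reverse. Only share differences, interferon medians and G2M differences could reverse, and none did where its main interval left out 0. The share differences stayed within their main intervals, which does not mean that their size was unchanged. By median count 3 tags were higher and 2 lower, against 2 and 3 by share. Counts are given as higher and lower genes for Dntt against Dntt-negative (78 and 179), against the Flt3 comparator (44 and 40), Ifnar-/- against Ifnar+/- (1 and 20) and LSK against LK (21 and 21), for the counts that moved. At 1.5-fold they were 177 and 337, 89 and 138, 6 and 38, and 153 and 55. With a minimum of 10 UMI they were 156 higher, 101 and 79, 11 and 47, and 83 and 65. With 5 CPM added they were 28 and 17, 16 and 5, 0 higher, and 0 and 12, and the interferon medians were -0.53 in LK and -0.51 in LSK. Thinning to 7500 UMI gave 31 higher and, against the Flt3 comparator, 14 higher. At least 5 Dntt UMI gave 85 lower than the comparator, 2 higher in Ifnar-/-, and 10 and 7 in LSK. Without likely doublets there were 64 lower than the comparator, and 8 and 10 in LSK. Leaving out Dntt cells with at least 5 lineage UMI per 10000 gave 123 lower than the comparator, 0 and 9 in Ifnar-/-, 2 and 1 in LSK, and an interferon median of -0.72 in LK. The following were chosen after the data were seen. At 20 lineage UMI per 10000 there were 61 lower than the comparator, whose cells were not filtered, and 6 lower in LSK. Without the T and NK cells, chosen by a list that holds Trbc1, 0 genes were higher in Ifnar-/-. Cells with Y-linked UMI gave 0 and 13 and cells with Xist UMI 11 lower in Ifnar-/-. Leaving out each library in turn gave 79 to 99 higher and 209 to 231 lower than Dntt-negative cells, and 45 to 65 higher and 47 to 74 lower than the comparator, with 74 without the LK Ifnar+/- library. Counting cells with at least 1 G2M UMI, the LSK differences were 10.3 points in Ifnar+/- and 7.90 points in Ifnar-/-. Where a cause of these moves is not set by the setting itself, the cause was not tested.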
